A study of Mus musculus with 4 samples.

Results

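The miR-30 family guide strands are the 5 mouse miRNAs mmu-miR-30a, mmu-miR-30b, mmu-miR-30c, mmu-miR-30d and mmu-miR-30e. They were chosen by name among the 517 mouse miRNAs assayed, leaving out the opposite strands of the same hairpins, whose names end in an asterisk, and all 5 were detected. MiRNAs were measured in bronchoalveolar stem cells (BASCs), cells of the junction between airway and alveoli of the mouse lung that are held to be able to form both airway and alveolar epithelium. The study compared control BASCs with BASCs depleted of c-Myc, a transcription factor that raises some miRNAs and lowers others. The groups are 2 samples labelled control and 2 samples labelled c-Myc depleted. Both groups came from lungs of ICR mice aged 4 to 6 weeks, sorted as CD31-, CD45-, CD34+ and Sca1+ cells and plated on irradiated mouse embryonic fibroblasts. For the established cells the study describes collagen-coated dishes in its results and passage on fibroblasts in its methods. Whether fibroblast RNA was in these samples was not tested. The depleted cells carried c-Myc shRNA from a lentivirus and had been selected with puromycin as stable lines. The text of the study calls its comparison group wild type and also describes a negative control vector, and the labels do not say which applies to these controls. Nor do they say whether the replicates were separate cultures or how many clones a line held, so the spread between replicates may be technical. The study reports lower c-Myc mRNA by real-time PCR and lower protein by western blot in its stable lines. Its discussion calls the depletion incomplete. c-Myc mRNA was not measured on these cards, so the depletion cannot be checked in these samples.

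A guide strand is the arm of a miRNA hairpin that is mainly loaded into an Argonaute protein, and it finds mRNAs chiefly by pairing through its seed, bases 2 to 8. The miR-30 guides share one seed and so share many predicted targets, which are then translated less and degraded faster. In other cell types the family is known as a brake on epithelial-mesenchymal transition, and it belongs to the miRNAs described as repressed by Myc in lymphoma cells. The RefSeq sequences (GRCm38.p6) of the guides that could be matched by name, 3 of 5, are shown with the seed in capitals, because the seed is what the family has in common and the members differ only in later bases.
miR-30a-5p: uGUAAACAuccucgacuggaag
miR-30c-5p: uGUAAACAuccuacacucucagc
miR-30e-5p: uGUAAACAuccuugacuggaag
miR-30a and miR-30e differed at 1 of 22 bases, C13U counted from the 5' end of miR-30a. Whether the assay of one also detects the other was not tested. miR-30c shared its first 12 bases with both and differed from each at 5 of the first 22. Mature miR-30a lies on the plus strand at chr1:23272274-23272295 and miR-30e on the minus strand at chr4:120772660-120772681. Mature miR-30c is encoded at chr1:23291714-23291736 (plus strand, gene Mir30c-2) and at chr4:120769584-120769606 (minus strand, gene Mir30c-1), and because both genes give the same guide the assay cannot split them. In the annotation the family forms 3 neighbouring pairs, each with 0 annotated genes in between: Mir30a with Mir30c-2 on chromosome 1, Mir30c-1 with Mir30e on chromosome 4, inside the bounds of Nfyc, and Mir30b with Mir30d on chromosome 15.

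The measurement was a TaqMan low density array, 2 cards (A and B) of 384 real-time PCR wells. Each well gives a threshold cycle (CT), so that a lower CT means more RNA and 1 cycle equals 1 on the log2 scale. The members were each measured in 1 well of card A, and a difference between samples therefore holds the error of single wells. Wells with a CT numbered 340 to 351 in the controls and 334 to 341 in the depleted samples. Among miRNAs taken as cell type markers, 5 of 6 mesenchymal miRNAs had a CT under 35 in all samples, and their summed level was 3417 to 3436 copies per cell in controls and 5042 to 5170 after depletion. The epithelial list, for the lineage that BASCs are held to form, summed to far less in every sample. Of 8 epithelial miRNAs (the miR-200 family, miR-203, miR-205 and miR-375) 1 had a CT under 35 in all samples and 2 in none, with a summed level of 12.8 to 43.3 copies per cell in controls and 4.36 to 11.8 in depleted cells. The 2 endothelial miRNAs summed to 104 to 106 copies in controls and 26.0 to 28.7 after depletion. Of 5 blood miRNAs 1 was under a CT of 35 in all samples, with sums of 4.51 to 30.6 and 1.57 to 12.9 copies, and of 6 muscle miRNAs 1 was, with 4 in none and sums of 2.33 to 4.68 and 4.77 to 24.2 copies. The sums of all lists but blood did not overlap between the groups, and their part in the results on the miR-30 family was not tested. Such separation was common: in level relative to U6, 26.6% of all detected miRNAs did not overlap toward higher and 31.9% toward lower. The mesenchymal miRNAs also changed unequally. Mean CT fell by 0.97, 1.17 and 1.01 cycles for miR-199a-3p, miR-214 and miR-152, and by 0.19 and 0.02 for miR-143 and miR-145. In such bulk samples, fewer cells of a type and less RNA per cell cannot be told apart.

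The measured changes of the 5 guides after c-Myc depletion were not of one size, although no test between members could pass with these samples. miR-30c and miR-30d were 1.83-fold and 1.82-fold higher, while the means of miR-30a, miR-30b and miR-30e lay within 1.24-fold of the controls. The levels follow as ΔCT, the CT less the mean CT of the U6 small nuclear RNA on the same card, where a lower value is a higher level. The log2 change is the mean control ΔCT minus the mean depleted ΔCT, so that a positive value is a higher level after depletion.

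miR-30c, the member described as shared by the chromosome 1 and chromosome 4 pairs, had a ΔCT of 8.84 and 8.87 in control replicates 1 and 2, and of 7.84 and 8.12 in depleted replicates 1 and 2. Both depleted samples were above both controls, by more than the spread within either group. Its log2 change was 0.87 ± 0.15 (SE, n = 2 per group), with an adjusted p of 0.0279 in limma over the 80 mouse miRNAs past the filter of the study (lowest ΔCT under 10). miR-30c rose by this test, but under the other scalings described further on its adjusted p was above 0.05, as it was when any 1 of the 4 samples was left out (0.0631 to 0.997 in limma). In those 80 miRNAs 25.0% were called higher and 7.50% lower at an adjusted p under 0.05, so 1 called of the 3 members that passed the filter is near the background. One of the 3, miR-30e, passed it only through control replicate 2. The criteria of the study, a change above 2-fold together with an unadjusted p under 0.05, were met as higher by 16.2% of the tested miRNAs and by 0 members. The 1.83-fold change of miR-30c lay below that fold limit. Its log2 change was 0.88 and 0.86 without control replicates 1 and 2, and 0.73 and 1.01 without depleted replicates 1 and 2.

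miR-30d, encoded beside miR-30b, had a ΔCT of 12.01 and 11.87 in controls and of 11.13 and 11.02 in depleted samples. It was higher in both depleted samples than in either control, with a log2 change of 0.86 ± 0.19 (SE, n = 2 per group). Its lowest ΔCT was above 10, so the filter left it out of the main test. In a limma fit of all 263 mouse miRNAs with a CT under 35 in at least 1 sample, miR-30d had an adjusted p of 0.125 and miR-30c likewise 0.125, and neither passed. That fit called 0.760% of the miRNAs, in either direction, and 0 of the 5 members, although 67 of the 263 had an unadjusted p under 0.05, among them miR-30c (0.0190) and miR-30d (0.0153).

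miR-30a had a ΔCT of 11.24 and 10.84 in controls and of 11.01 and 11.12 after depletion. The depleted values lay between the controls, and the log2 change was -0.02 ± 0.24 (SE, n = 2 per group), with an adjusted p of 0.963 in the limma fit of all detected miRNAs. miR-30e, which differs from miR-30a by a single base, had a raw CT of 28.93 and 28.55 in controls and of 28.94 and 28.84 after depletion, and a ΔCT of 9.74 ± 0.42 and 10.04 ± 0.06 (SD, n = 2). Its groups overlapped, and its log2 change of -0.31 ± 0.25 (SE, n = 2 per group) did not pass (adjusted p = 0.433 in limma over the 80 tested). The controls of miR-30e differed by more than the groups did. Its ΔCT was under 10 only in control replicate 2 (9.44), in the group with the higher mean level. The other samples had 10.03 (control replicate 1), 10.08 and 10.0001 (depleted replicates 1 and 2). It was thus among the 80 tested through that 1 sample.

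miR-30b had a ΔCT of 9.07 and 8.77 in controls and of 9.13 and 9.14 in depleted samples. Both depleted values were just below the lower control in level, and the log2 change of -0.21 ± 0.16 (SE, n = 2 per group) did not pass (adjusted p = 0.417 in limma over the 80 tested). Before subtraction of U6 its CT was 27.97 and 27.88 in controls and 27.99 and 27.98 in depleted samples, and all 4 values lay close together. Groups that do not overlap were common in these data, 26.6% of all detected miRNAs toward higher and 31.9% toward lower levels, so 2 members higher (miR-30c and miR-30d) and 1 lower (miR-30b) are no more than a description. The median log2 change of the 5 members was -0.02, and it was 0.05 over the 80 tested miRNAs, 0.28 over the 174 miRNAs detected on card A and -0.02 over all 263 detected. By size of change, counted from the highest, miR-30c and miR-30d stood at places 43 and 45 of the 174 card A miRNAs, and miR-30a, miR-30b and miR-30e at 112, 134 and 145.

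**Figure D1:**
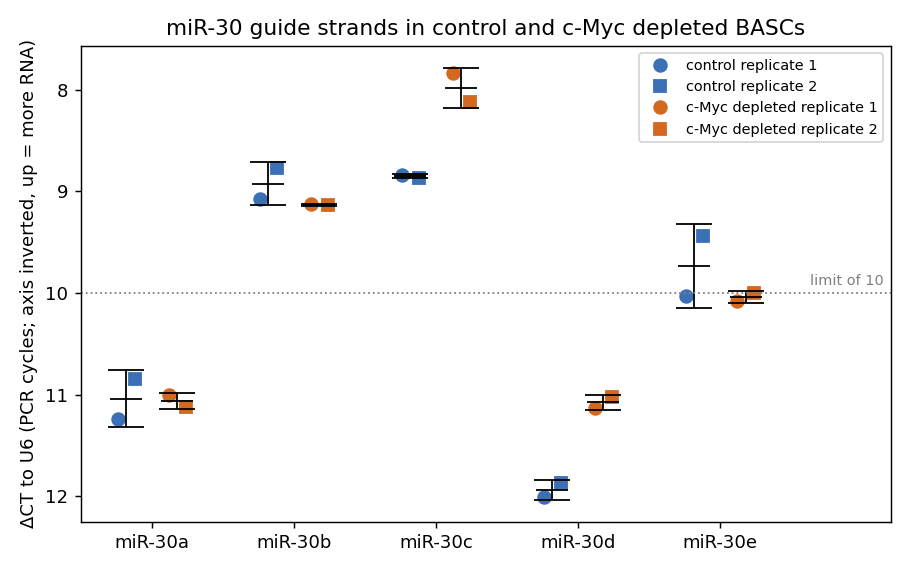
ΔCT to U6 (PCR cycles, axis inverted so that up is more RNA) of each miR-30 guide strand in the 2 control (blue) and 2 c-Myc depleted (orange) samples, with the mean and SD of each group as bars and the limit of 10 as a dotted line. Both depleted samples lie above both controls for miR-30c and miR-30d, and miR-30a and miR-30d lie below the limit in every sample. miR-30e lies above the limit only in control replicate 2.

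The order of the levels was the same in both groups, miR-30c, miR-30b, miR-30e, miR-30a and miR-30d from high to low, although assays can differ in PCR efficiency and the order between assays is then approximate. In controls the first 2 places were not separated, since the mean ΔCT of miR-30c (8.85 ± 0.02, SD, n = 2) and of miR-30b (8.92 ± 0.21) differed by 0.07 and their ranges overlapped. In depleted cells miR-30c (7.98 ± 0.20) stood 1.15 cycles, or 2.22-fold, above miR-30b (9.13 ± 0.01). At the other end miR-30a was 0.90 cycles above miR-30d in controls (11.04 ± 0.28 against 11.94 ± 0.10), and 0.01 cycles above it after depletion (11.06 ± 0.08 against 11.08 ± 0.07), where the ranges overlapped. All other neighbours in the order had ranges that did not overlap. The span from miR-30c to miR-30d was 8.49-fold in controls and 8.55-fold after depletion.

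Copies per cell were estimated from the CT by the formula in the methods of the study, which does not use U6. The median fall in raw CT was 0.43 cycles over the 174 miRNAs detected on card A and 0.13 over the 5 members. Higher copies after depletion were therefore common on the card and not particular to the family. The 5 members summed to 555 and 566 copies per cell in controls and to 803 and 741 in depleted samples. miR-30c gave most of the increase, with a mean of 198 ± 23.0 copies in controls and 400 ± 50.0 after depletion (SD, n = 2). miR-30d stayed a small part, at 23.5 ± 0.783 copies in controls and 47.3 ± 2.91 after depletion. Of the family's summed copies miR-30c made up 38.6% and 32.1% in controls and 54.3% and 49.3% in depleted samples, so its share was higher in both depleted samples. The share of miR-30b was 32.8% and 34.1% in controls and 22.4% and 24.4% after depletion, while its copies were 188 ± 8.02 and 180 ± 0.791 per cell. miR-30a had 43.7 ± 3.93 copies in controls and 47.6 ± 2.18 in depleted cells, and miR-30e had 108 ± 19.8 and 96.4 ± 4.83.

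Because all 5 assays were on one card, the CT difference between 2 members within a sample does not depend on U6, and it shows whether the members changed unequally. miR-30c was above miR-30b by 0.24 and -0.09 cycles in controls and by 1.29 and 1.02 cycles in depleted samples. The level of miR-30d stood at -2.935 and -3.091 cycles relative to miR-30b in controls and at -2.001 and -1.884 cycles in depleted samples. Both moved up by about one cycle against their relative, and miR-30b and miR-30d are neighbouring genes. The CT of miR-30c minus that of miR-30d was -3.171 and -3.0003 cycles in controls and -3.287 and -2.904 in depleted samples, a shift of 0.01 cycles with overlapping groups. Over the 10 pairs, the 6 that set miR-30c or miR-30d against miR-30a, miR-30b or miR-30e shifted by 0.88 to 1.18 cycles, and the other 4 by 0.01 to 0.28 cycles. The groups did not overlap in 8 of the 10 pairs, each with an exact two-sided permutation p of 0.333, the smallest that 2 against 2 samples allow (0.417 adjusted over the 10 pairs), so no pair could pass a threshold of 0.05. Among all 8385 pairs of the 130 card A miRNAs with a CT under 35 in every sample, 52.1% likewise did not overlap and 34.3% shifted by at least 0.88 cycles, so unequal change of this size was common on the card.

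**Figure D2:**
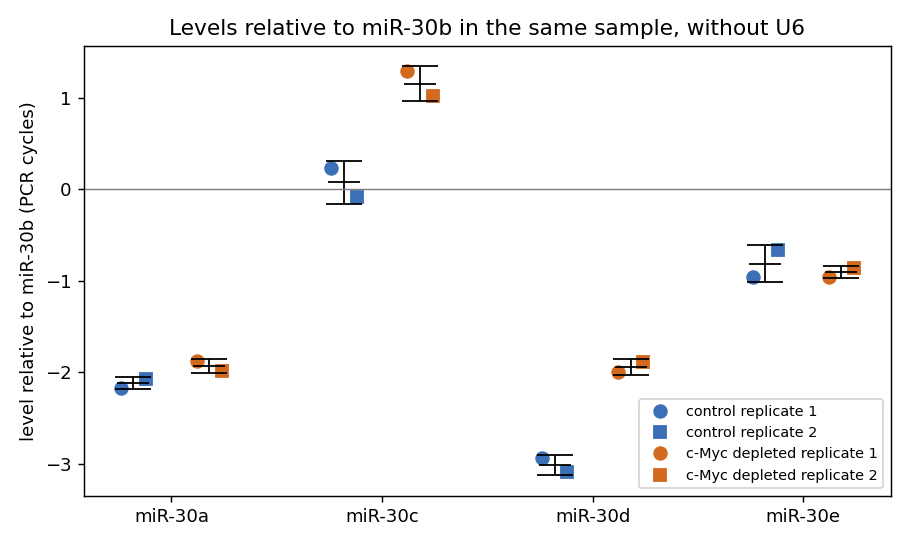
Level of the other 4 guide strands relative to miR-30b in the same sample (PCR cycles, above 0 is higher than miR-30b), control samples in blue and c-Myc depleted samples in orange, with mean and SD of each group as bars. miR-30c and miR-30d lie about 1 cycle higher in the depleted samples, and miR-30a and miR-30e by less than 0.2 cycles from their control means.

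The changes of the members in raw CT can be set beside those of the whole card. The mean CT fell by 1.02 cycles for miR-30c and by 1.01 for miR-30d, and changed by 0.13, -0.06 and -0.15 cycles for miR-30a, miR-30b and miR-30e, where a positive value is a lower CT after depletion. Of the 130 card A miRNAs with a CT under 35 in every sample, 23.1% had a change within 0.15 cycles of 0, 18.5% within 0.15 of 1, 16.2% within 0.15 of 0.5, and 1.54% and 2.31% within 0.15 of -0.5 and 1.5. The deposited CT values were also not evenly spread between whole cycles. Their part after the decimal point was 0.9 or more in 604 of 1366 values (44.2%), where an even spread gives 10%. Among the 20 values of the members it was so in 12 (60%), 2 each for miR-30a, miR-30c and miR-30e and 3 each for miR-30b and miR-30d. Control replicates 1 and 2 had 54.1% and 53.1% such values on card A, and depleted replicates 1 and 2 had 43.0% and 59.8%. The part of this uneven spread in the changes of miR-30c and miR-30d was not tested.

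**Figure D3:**
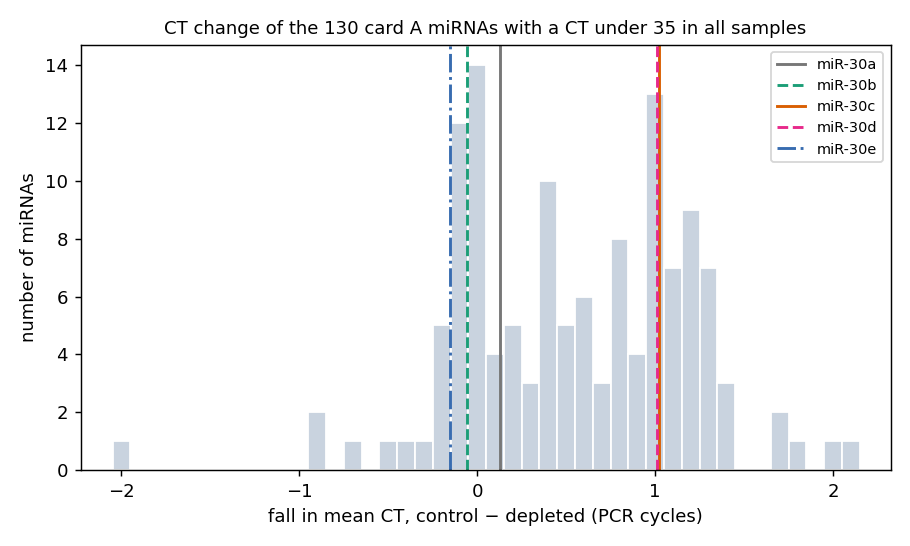
Number of card A miRNAs (vertical axis) by the fall in mean CT from control to c-Myc depleted samples (horizontal axis, PCR cycles, bins of 0.1), for the 130 miRNAs with a CT under 35 in every sample, with the 5 miR-30 guide strands as vertical lines. miR-30a, miR-30b and miR-30e stand near 0 and miR-30c and miR-30d near 1, and many other miRNAs lie in between.

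**Figure D4:**
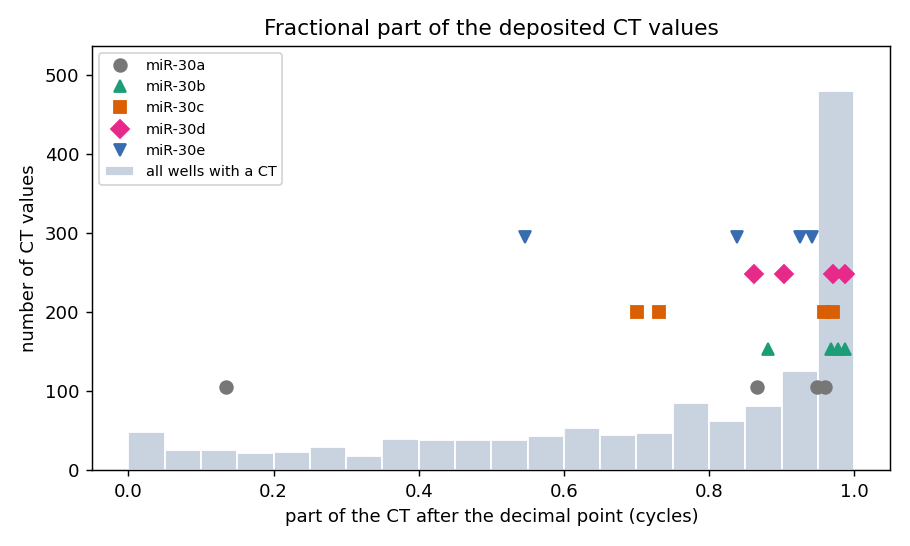
Number of CT values (vertical axis) by the part of the CT after the decimal point (horizontal axis, cycles) over all wells with a CT, with the 4 values of each miR-30 guide strand as coloured markers whose height has no meaning. The values pile up just under a whole cycle, where 12 of the 20 marked values have a part of 0.9 or more.

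The reference RNAs were measured on both cards. The fall in mean CT from control to depleted samples was 1.07 cycles on card A (1 well) and -0.02 on card B (4 wells) for snoRNA135. It was -0.17 cycles on card A (1 well) and 1.001 on card B (4 wells) for snoRNA202. The same RNA thus shifted by about 1 cycle on one card and not on the other, and the shift of snoRNA135 on card A was as large as that of miR-30c and miR-30d. U6 on card A, which scales the members, had a mean CT of 18.9 and 19.1 in controls and of 18.9 and 18.8 after depletion, a fall of 0.15 cycles, and U6 on card B fell by 0.72.

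With other references the size of each change shifted. Since all members are on card A, each reference subtracts 1 constant per sample from all of them, so the differences between members are fixed by arithmetic under every scaling but quantile normalization. Median centring on the miRNAs with a CT under 35 in all samples gave log2 changes of 0.48 for miR-30c, 0.47 for miR-30d, -0.41 for miR-30a, -0.60 for miR-30b and -0.69 for miR-30e. Under this scaling no member passed, and the adjusted p of miR-30c in limma was 0.177. Over the scalings and with each sample left out in turn, the log2 change ranged from 0.37 to 1.01 for miR-30c, from 0.36 to 0.93 for miR-30d and from -0.53 to 0.18 for miR-30a. It stayed below 0 for miR-30b (-0.71 to -0.06) and for miR-30e (-0.81 to -0.01). The snoRNA scaling averaged snoRNA135 and snoRNA202, whose shifts on card A differed, and neither was used alone. The CT of snoRNA135 fell by more than that of miR-30c and miR-30d, so against it alone both would lie just below 0. The CT of snoRNA202 rose by more than that of miR-30b and miR-30e, so against it alone both would lie just above 0. Without any scaling the CT of miR-30c and miR-30d gave an adjusted p of 0.0770 and 0.0544 in limma over all detected miRNAs.

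**Figure D5:**
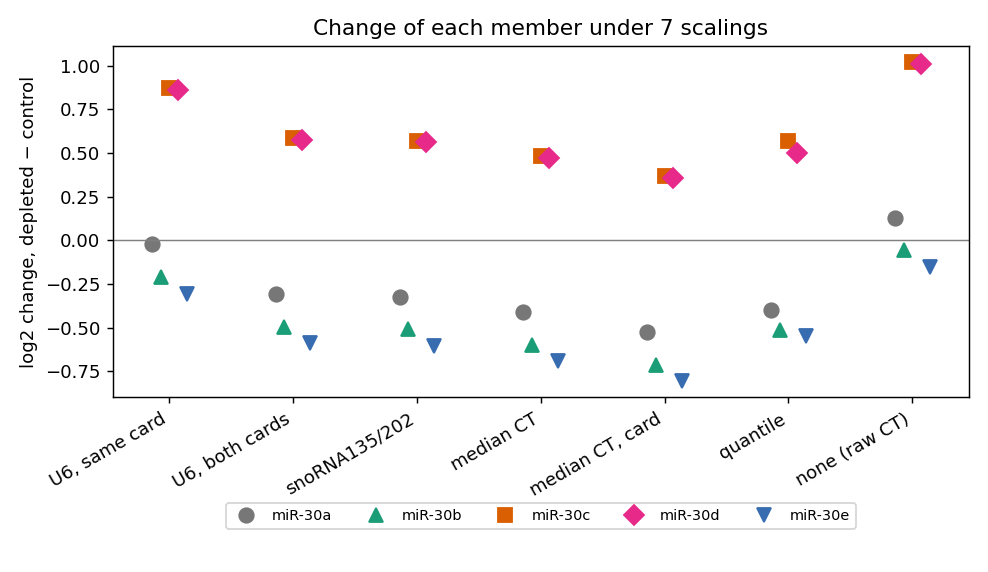
Log2 change of each miR-30 guide strand after c-Myc depletion (vertical axis) under 6 scalings of the CT values and for the raw CT (horizontal axis). miR-30c lies between 0.37 and 1.02 and stays above 0 in those shown, where snoRNA135 and snoRNA202 were averaged. The spacing of the members is fixed under all scalings but quantile normalization, so only the height of the whole set could move.

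The opposite strands of the same hairpins were assayed on card B, in 2 wells each. The 3' strands of miR-30a and miR-30e, with a seed of their own in capitals, differ from each other by G18A counted from the 5' end, and are shown because they were the only opposite strands with a CT in a mouse assay.
miR-30a-3p: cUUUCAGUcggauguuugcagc
miR-30e-3p: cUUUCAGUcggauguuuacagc
miR-30a*, the array's name for the 3' strand of miR-30a, had a ΔCT of 8.47 and 8.03 in controls and of 9.29 and 9.70 in depleted samples. It fell by 1.25 ± 0.25 on the log2 scale (SE, n = 2 per group; adjusted p = 0.0334 in limma over the 80 tested and 0.125 over all detected), while the guide miR-30a changed by -0.02. The median log2 change of the 16 tested miRNAs of card B was -0.54, against 0.23 for the 64 of card A. The 2 values rest on different cards: the fall in the raw CT of miR-30a* was -0.52 cycles, a later CT after depletion, and subtracting U6 of card B, whose CT fell by 0.72, gave the rest. The difference between the strands was not tested. miR-30e* had a ΔCT of 9.36 and 8.98 in controls and of 9.63 and 9.74 after depletion, a log2 change of -0.51 ± 0.18 that did not pass (adjusted p = 0.137 in limma over the 80 tested), and its raw CT moved the other way, with a mean 0.21 cycles lower after depletion. miR-30b*, miR-30c-1* and miR-30c-2* gave no CT in any well, so the guide with the highest level, miR-30c, had no measured partner strand. miR-384-5p, the other miRNA found in RefSeq with the same seed, also gave no CT in its single well on card A.
miR-384-5p: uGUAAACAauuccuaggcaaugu
It is shown because it shares the first 8 bases, seed included, with miR-30a and differs at 10 of the first 22.

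Among 77 tested miRNAs outside the family, those closest to the mean profile of the 5 members over the 4 samples (Euclidean distance of centred ΔCT) were miR-709 (0.109), miR-720 (0.252), miR-34c* (0.259), miR-93 (0.259) and miR-10a (0.268). The mean profile is nearly flat, and so were these, with log2 changes from 0.00 to 0.23 and none past the threshold (adjusted p of 0.297 to 0.996 in limma over the 80 tested). That mean joins miR-30c and miR-30d, which were higher after depletion, with the other members, which were not. A miRNA close to it need not resemble any single guide. miR-709, miR-720 and miR-34c* were on card B and miR-93 and miR-10a on card A.

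Other miRNAs described in lymphoma cells as repressed by Myc give a frame for the family. Of 20 such names outside the family 19 were on the cards, 18 were detected and 8 passed the filter. After depletion 2 of the 8 rose, 0 fell and 6 did not pass, beside 25.0% called higher among all tested miRNAs. The 2 were miR-26a, known to target the Polycomb subunit Ezh2 (log2 change 1.10, adjusted p = 0.0190 in limma), and miR-34a, a p53 target (1.17, adjusted p = 0.0107). Of the 1366 CT values deposited, 24 carry more than 6 decimals, all of them in depleted samples and in 13 miRNAs, with 0 among the 20 values of the members. Both depleted values of miR-34a and 1 of miR-26a are among them, as are those of the markers miR-214 and miR-126-3p. Both changes were larger than that of miR-30c, and the median log2 change of the 8 was 0.06. miR-29a and miR-16, abundant members of the list, had log2 changes of -0.25 and -0.27 and adjusted p of 0.411 and 0.192 in limma. The others not called went both ways, with 0.30 for miR-22, 0.24 for miR-29c, -0.21 for miR-15b and -0.12 for let-7g.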

How the data were processed

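The authors deposited 1 table of threshold cycles (CT, in PCR cycles, not normalized), exported, by the study's methods, with the RQ manager software. The submitters' processing notes also name Partek 6.4. Groups were taken from the sample labels. A CT over 35 or missing was replaced by 35, duplicate wells were averaged, and ΔCT was taken against the card's own mean U6 CT. Minus ΔCT was tested in R 4.3.3 with limma 3.58.1 (lmFit, then eBayes, two-sided, Benjamini-Hochberg adjustment) over the 80 mouse miRNAs with a lowest ΔCT under 10, and again over the 263 with a CT under 35 in at least 1 sample. Tables were made with Python 3.11.15, numpy 2.4.6 and pandas 2.3.3. The scripts were tested on simulated data. With 2 samples per group there are 2 residual degrees of freedom per miRNA before pooling, and the number of samples limits the precision.

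The miRNAs named are the members, the opposite strands, other assays with the same seed or named miR-30, the 5 closest profiles, and those called in the Myc list. miR-29a and miR-16 were chosen after their values were seen, and the rest of the list that passed the filter without a call was then added. Members and lists were chosen with earlier results of these data known. Alternatives were median centring (also within each card), U6 over both cards, snoRNAs, quantile normalization, other CT ceilings and ΔCT filters, the one-way test per miRNA of the study's methods, a variance trend, a replicate block and leaving out each sample. Raw CT and a crossed block were added after seeing the data. Mature sequences and gene neighbours are RefSeq's, of assembly GRCm38.p6. The mRNA arrays of the study were not analysed here.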

Additional observations from a re-analysis of the deposited data

Results flagged for a closer look

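An assay for the rat opposite strand miR-30d*, outside the comparisons because it is not a mouse assay, gave a signal in every sample. In its 1 well the controls had a CT of 33.97 (replicate 1) and 34.73 (replicate 2), and the depleted samples 34.97 (replicate 1) and 34.78 (replicate 2), while the assay for a plant miRNA gave 0 CT values in its 2 wells. All 4 values lie near the ceiling of 35, and no group difference was tested.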

How the results depend on the processing

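Other ceilings, filters, tests and the replicate block leave the log2 changes of the members as they are. Under the settings run that can move them, the scalings and leaving out a sample, miR-30c and miR-30d stayed above 0 and miR-30b and miR-30e below 0, and miR-30a changed sign. The snoRNA scaling averaged references that differed on card A, with CT falls of 1.07 for snoRNA135 and -0.17 for snoRNA202. Raw CT falls were 1.02 for miR-30c, 1.01 for miR-30d, -0.06 for miR-30b and -0.15 for miR-30e. Set against snoRNA135 alone, miR-30c and miR-30d would thus lie just below 0. Set against snoRNA202 alone, miR-30b and miR-30e would lie just above 0. The signs of these 4 members therefore depend on the reference. The call of miR-30c did not hold. Of the 5 members, 1 was called as reported, and 0 under median centring over all miRNAs or per card, pooled U6, the snoRNAs, quantile normalization, no filter on low levels, the per-miRNA test of the methods or the replicate block, and 0 to 0 when each sample was left out in turn. It stayed at 1 with no ceiling, a ceiling of 32, ΔCT under 10 in all samples and a variance trend. Of all tested miRNAs, 26 were called as reported, 3 under median centring, 1 under median centring within each card, 14 with U6 pooled, 4 after quantile normalization, 2 with no filter, 17 with ΔCT under 10 in all samples, 3 by the per-miRNA test and 0 under the replicate block. Leaving out 1 sample gave 0 to 25 (0 without depleted replicate 2, 1 without depleted replicate 1, 21 and 25 without control replicates 1 and 2). The median log2 change of the members was -0.41 under median centring, -0.53 within each card, -0.31 with U6 pooled, -0.32 with the snoRNAs and -0.40 after quantile normalization.

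Replicate numbers were not known to pair samples: deviations of same-numbered samples correlated at r = -0.44 over the 80 miRNAs. With the numbers crossed, added after seeing the data, 33 miRNAs and 1 member were called. With 2 samples per group, crossing the numbers turns the sign of that correlation by arithmetic. The crossing was picked from these same values, so its count is no support for either pairing. Single wells on card A and 2 samples per group limit all of these values.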
